A study of Mus musculus with 8 samples.

Results

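The 3 miRNAs described here, mmu-miR-451a, mmu-miR-144-3p and mmu-miR-144-5p, are the mature products of the neighbouring Mir144 and Mir451a hairpins and were taken by name from the 1881 mouse miRNAs of the array. Kidney total RNA, 100 ng per array, was labelled with Cy3 and hybridised to 8 single-colour Agilent miRNA arrays. The 4 db/db samples came from the strain written C57BLKS/J Iar -+Leprdb/+Leprdb, which lacks a functional leptin receptor and becomes obese and diabetic. The 4 control samples came from the strain written C57BLKS/J Iar -m+/m+. Their source is m/m mice but their titles read dbm, so whether they carried a db allele was not settled. All samples were from males aged 28 weeks. Nothing in the labels ties each sample to an animal of its own, and p-values therefore speak only for the spread among these 8 samples. The labels also give no account of whether blood was flushed from the kidneys.

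The locus of Mir144 and Mir451a is transcribed in erythroid precursors under the control of GATA1. miR-451a is among the most abundant miRNAs of red blood cells, is cut from its short hairpin by Argonaute 2 without Dicer, and is known to repress Ywhaz (14-3-3zeta) during erythroid maturation. miR-144-3p and miR-144-5p are the arms of an ordinary hairpin beside it, processed by Drosha and Dicer, and miR-144-3p is known to repress Nfe2l2 (Nrf2). In whole kidney RNA, red cells held in the vessels are a known source of these miRNAs. In bulk samples, a difference in the number of cells of a type cannot be told apart from a difference in RNA per cell.

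The mature sequences, shown because the seed (bases 2 to 8, in capitals) sets the targets and because each array probe is complementary to one of them, are those of RefSeq, where all 3 members were matched.
miR-451a: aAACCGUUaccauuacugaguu
miR-144-3p: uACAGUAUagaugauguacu
miR-144-5p: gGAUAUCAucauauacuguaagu
The 3 seeds differ from each other, and none of the other mature miRNAs among the 1738 in the table has the same bases 2 to 8. miR-101a-3p shares bases 2 to 7 with miR-144-3p. In GRCm38.p6 all 3 lie on the plus strand of chromosome 11, miR-144-5p at chr11:78073010-78073032, miR-144-3p at chr11:78073047-78073066 and miR-451a at chr11:78073186-78073207. The hairpins, with the mature parts in capitals, show how the arms lie.
Mir144: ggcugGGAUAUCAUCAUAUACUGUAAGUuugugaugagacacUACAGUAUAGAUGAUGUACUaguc
Mir451a: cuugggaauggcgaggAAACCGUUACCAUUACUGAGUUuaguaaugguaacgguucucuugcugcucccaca
miR-451a spans bases 17 to 38 of its 72-base hairpin and so runs across the loop, whereas the miR-144 arms lie on opposite sides of theirs. The hairpins are 99 bases apart and overlap no protein-coding gene. In order of coordinates, the near end of Flot2 lies 12570 bases before Mir144 and that of Eral1 134 bases after Mir451a.

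miR-451a was a bright miRNA of these kidneys, and its values differed several-fold between samples of one genotype. Signals are relative: on each array the 269 miRNAs with a detection call on all 8 arrays were given one common 75th percentile. In db/db replicates 1 to 4 miR-451a had scaled signals of 1215, 2059.8, 610.5 and 3344. In control replicates 1 to 4 it had 2884, 1387, 669 and 905. The highest db/db array was 5.48-fold above the lowest db/db array, and the highest control array 4.31-fold above the lowest control array, and each group held both high and low arrays, so that the groups overlapped. On the log2 scale miR-451a averaged 10.55 ± 1.05 in db/db and 10.29 ± 0.91 in control kidneys (SD, n = 4 each), a difference of 0.27 ± 0.61 (SE; limma, adjusted p = 0.735). The 95% interval of the difference, -1.13 to 1.67, runs from 0.456- to 3.18-fold. The sign rested on single arrays: the difference was -0.12 without db/db replicate 4 and -0.04 without control replicate 3.

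miR-144-3p was dimmer and followed the same order of arrays as miR-451a within each group. Its scaled signals were 79.0, 130.0, 35.1 and 220.2 in db/db replicates 1 to 4. In control replicates 1 to 4 they were 174, 69.9, 33.9 and 44.7. Within a group the highest array lay 6.27-fold above the lowest in db/db and 5.13-fold in control kidneys, and the groups overlapped again. The log2 mean was 6.56 ± 1.13 in db/db and 6.03 ± 1.03 in control kidneys (SD, n = 4 each), a difference of 0.53 ± 0.66 (SE; limma, adjusted p = 0.530) with a 95% interval of -1.01 to 2.06. Single arrays moved this difference, which was 0.12 without db/db replicate 4, 0.20 without control replicate 3, 0.32 without db/db replicate 2, 0.34 without control replicate 4 and 1.00 without either db/db replicate 3 or control replicate 1; under normexp it was 0.26. Levels of different miRNAs are not compared here, since each probe has its own brightness.

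miR-144-5p, the other arm of the Mir144 hairpin, was at the edge of detection. It was called detected on db/db replicates 2 and 4 and on control replicate 1, which are the 3 arrays highest in miR-451a. Scaled signals were 5.25, 11.3, 1.57 and 16.9 in db/db replicates 1 to 4, and 11.99, 6.73, 2.42 and 3.23 in control replicates 1 to 4. Signals under a floor of 2.80 were set to it, which applied to replicate 3 of each group. The log2 means with the floor were 2.86 ± 1.15 in db/db and 2.38 ± 0.98 in control kidneys (SD, n = 4 each). That difference of 0.48 had a 2-sided exact permutation p of 0.600, where the smallest the design allows is 0.0286. It was -0.01 without control replicate 3 and under normexp, and 0.0044 without db/db replicate 2. The floor was set anew when an array was left out, at 1.69 without control replicate 3 and 1.63 without db/db replicate 2. Those 2 values therefore mix the missing array with a lower floor under undetected arrays. The longer of its 2 probes was well above background at 15 of 15 spots on db/db replicate 4, at 1 on db/db replicate 2 and at 3 on control replicate 1, and the shorter probe at 0 spots on all arrays. In the authors' value table, where undetected miRNAs rest on a fill, miR-144-5p had ratios of 33.0 and 47.8 on the 2 db/db arrays with a detection call and 0.779 and 0.904 on the other db/db arrays, and 31.8 on control replicate 1 with 0.891 to 1.00 on the other control arrays. It was not detected on all arrays of either group and was left out of the limma fit.

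**Figure D1:**
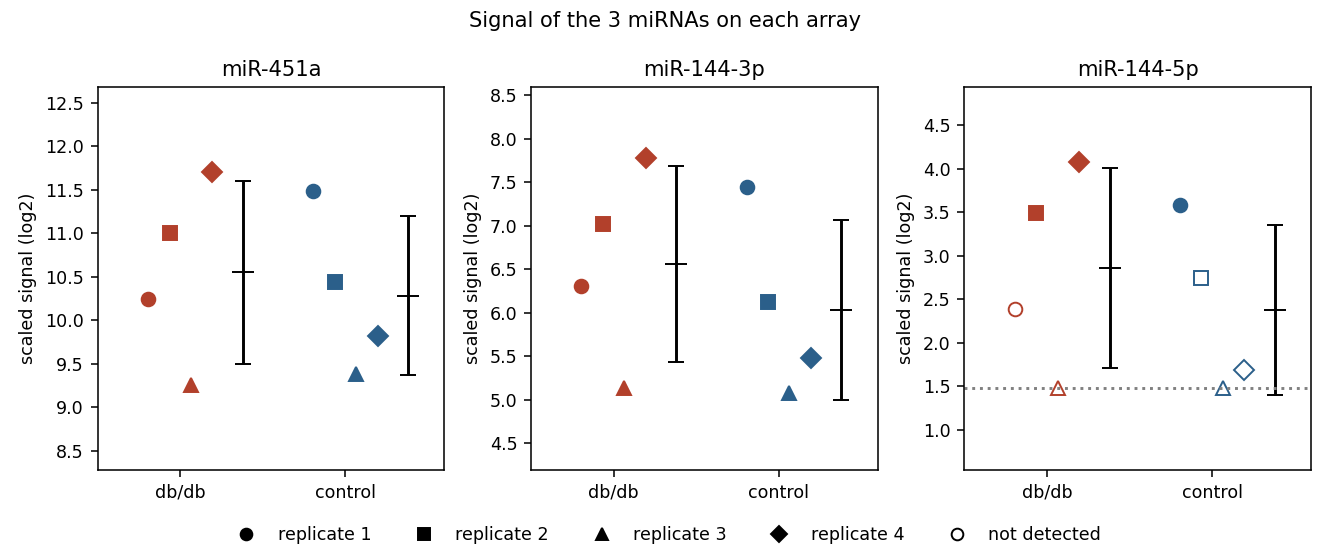
Log2 scaled signal of miR-451a, miR-144-3p and miR-144-5p on each of the 8 arrays, db/db left of control, with group means and SDs (n = 4 each), open symbols where not detected and a dotted line at the floor. Points of the groups overlap in each panel, with miR-451a between 9.25 and 11.71 in db/db and between 9.39 and 11.49 in control kidneys.

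Of the 2 members tested, 0 passed an adjusted p of 0.05 in limma, and 0 had an unadjusted p under 0.05. Among all 316 miRNAs tested, 132 passed, or 41.8%; of the 316, 24.4% were called higher in db/db and 17.4% lower, and the groups did not overlap for 41.5%. The share of calls that were higher in db/db, 58.3%, was 78.1% with no scaling, 83.2% with scaling to spike-ins and 46.6% with quantile normalization, and neither member passed under these. A p that misses the threshold does not show that the genotypes had equal levels, given the width of the intervals. Each genotype filled a row of the slide by itself, so the row and the genotype cannot be told apart.

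The spread between arrays of one group was wide for these miRNAs. The pooled within-group SD of log2 signal was 1.08 for miR-144-3p and 0.986 for miR-451a, the highest and second highest of the 316 tested miRNAs. The median over those 316 was 0.114 and the 90th percentile 0.294, so the members had 9.47 and 8.64 times the median. The next highest tested was miR-6918-5p at 0.758. Among miRNAs detected on all 8 arrays, the next was miR-3470a at 0.550. miR-144-5p, not among those tested, had an SD of 1.07 with the floor, 0.122 with normexp background correction and 0.428 with the brightest probe. Under normexp the SD of miR-144-3p was 0.594. Of miRNAs of like brightness, the 30 tested miRNAs within 1 log2 unit of miR-451a had a median SD of 0.0543 and a highest of 0.530, and the 57 near miR-144-3p had a median of 0.0848 and a highest of 0.458. No test was made of these ranks. In the authors' value table, where fills widen the spread of dim miRNAs, miR-144-3p and miR-451a ranked 37 and 38 of the tested miRNAs, and with the floor at the lowest positive signal 12 and 13.

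**Figure D2:**
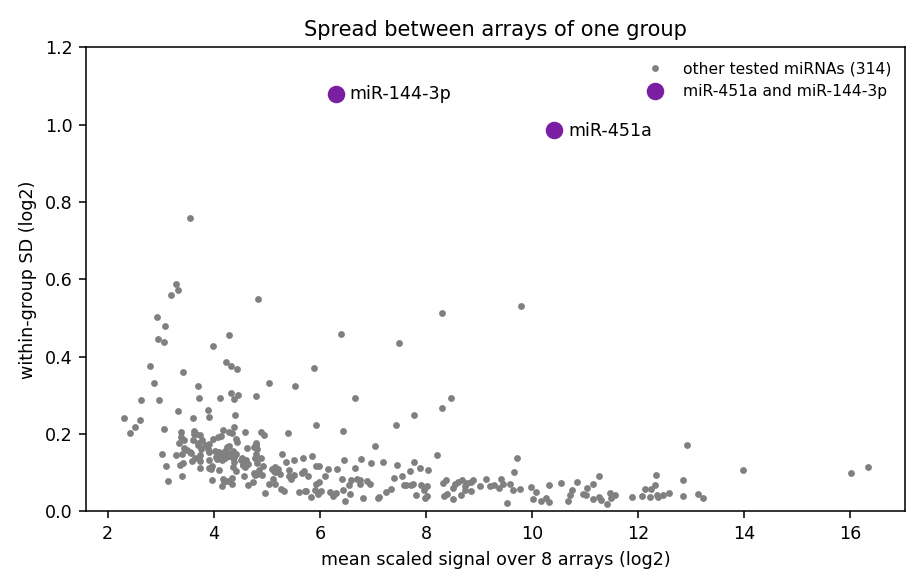
Pooled within-group SD of log2 signal (vertical axis) against mean log2 scaled signal (horizontal axis) for the 316 tested miRNAs, with the 2 tested members named. miR-144-3p at 1.08 and miR-451a at 0.986 lie above all other points, the next at 0.758, and the median is 0.114.

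The spread was present in both probes of each of the 2 tested members. The probes of miR-451a match its bases 2 to 22 and 1 to 22, and those of miR-144-3p match bases 2 to 20 and 1 to 20. As near copies read on the same arrays, they cannot speak to differences in RNA or labelling between samples. Each probe has 15 spots on an array, and the coefficient of variation over those spots was 1.64% to 3.90% for miR-451a and 3.91% to 12.5% for miR-144-3p. The 2 probes of miR-451a had a correlation of 0.999 over the 8 arrays and gave differences between the genotypes of 0.24 and 0.29. Those of miR-144-3p had a correlation of 0.998 and gave 0.54 and 0.52. The SD over arrays of the difference between a member's 2 probes was 0.0415 for miR-451a and 0.0678 for miR-144-3p, below their SDs between arrays. miR-451b, from the opposite strand of the Mir451a hairpin, was detected on no array.

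The 3 mature miRNAs moved together from array to array. Over the 8 arrays, miR-451a and miR-144-3p had a Pearson r of 0.991 (exact permutation p = 9.92e-05, adjusted 0.000149 over 3 pairs) and a Spearman rho of 0.952 (exact p = 0.00114). Leaving out db/db replicate 4 and control replicate 1, the arrays farthest from the median of miR-451a, r was 0.978 (exact p = 0.00556). With each group's mean taken out, r was 0.998, and miR-144-3p changed by 1.09 log2 units per log2 unit of miR-451a. miR-451a and miR-144-5p had r of 0.986 (exact permutation p = 4.96e-05, adjusted 0.000149) and rho of 0.994 (exact p = 9.92e-05), and r of 0.979 without the same 2 arrays (exact p = 0.00278). The arms of the Mir144 hairpin had r of 0.985 (exact permutation p = 0.000149, adjusted 0.000149) and rho of 0.970 (exact p = 0.000595), and r of 0.973 without 2 arrays (exact p = 0.00556). Arrays shared their RNA, labelling and scaling across the 3 miRNAs, and the miR-144-5p values include 2 arrays at the floor. With the brightest probe, miR-144-5p had r of 0.869 with miR-451a and 0.885 with miR-144-3p.

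**Figure D3:**
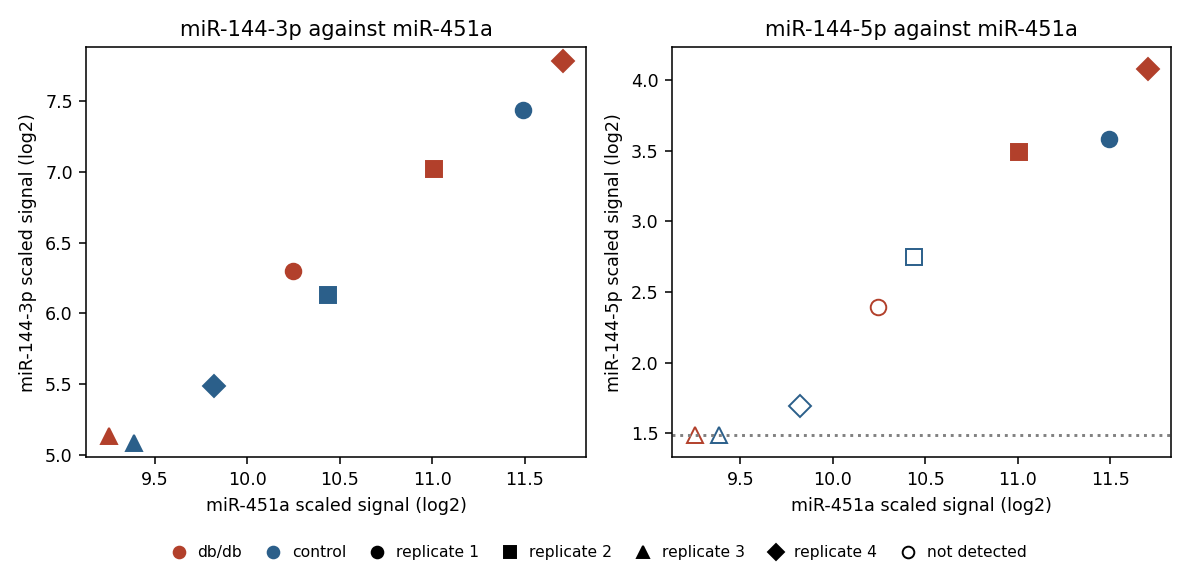
Log2 scaled signal of miR-144-3p and miR-144-5p against that of miR-451a on the 8 arrays, db/db and control marked apart. Both miRNAs rise with miR-451a in both groups, with r of 0.991 for miR-144-3p and 0.986 for miR-144-5p. At like levels of miR-451a, miR-144-3p lay somewhat higher in db/db than in control kidneys. For example, db/db replicate 1 had 6.30 at a miR-451a of 10.25, and control replicate 2 had 6.13 at 10.44. That offset was not tested.

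Array-wide measures are given beside this order. Going from the array highest in miR-451a to the lowest, 342, 289, 358 and 341 miRNAs were detected in db/db replicates 4, 2, 1 and 3, and 322, 305, 352 and 318 in control replicates 1, 2, 4 and 3. Before scaling, the log2 value of the percentile used was 8.64, 8.57, 8.73 and 8.67 on those db/db arrays and 8.40, 8.51, 8.67 and 8.52 on those control arrays. Neither measure had the exact order of miR-451a in either group. The percentile was lower on db/db replicates 4 and 2 than on 1 and 3. It was also lower on control replicates 1 and 2 than on 4 and 3. In each group the arrays higher in miR-451a thus had the lower percentile, and a link between them was not tested. With no scaling at all the SD of miR-451a was 0.936, and with scaling to the labelling spike-ins it was 0.914.

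The miRNAs most like miR-451a across arrays moved less than it did. Among 267 other miRNAs detected on all arrays, the correlation of deviations from the group means with those of miR-451a had a median of 0.298. Of these, 1 lay over 0.9 and 18 over 0.8. The 6 highest were miR-140-3p (0.921), miR-16-5p (0.890), miR-142a-3p (0.889), miR-199a-5p (0.876), miR-320-3p (0.874) and miR-484 (0.871), over 8 arrays. Their changes per log2 unit of miR-451a were 0.0425 for miR-140-3p, 0.0649 for miR-16-5p and 0.224 for miR-142a-3p, the steepest of the 6, against 1.09 for miR-144-3p. These correlations share the arrays and the scaling and are a description. Which miRNAs ranked highest depended on single arrays and on the processing: 1 to 6 of the 6 were kept across alternatives. Only 1 was kept without control replicate 1 or without db/db replicate 3.

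**Figure D4:**
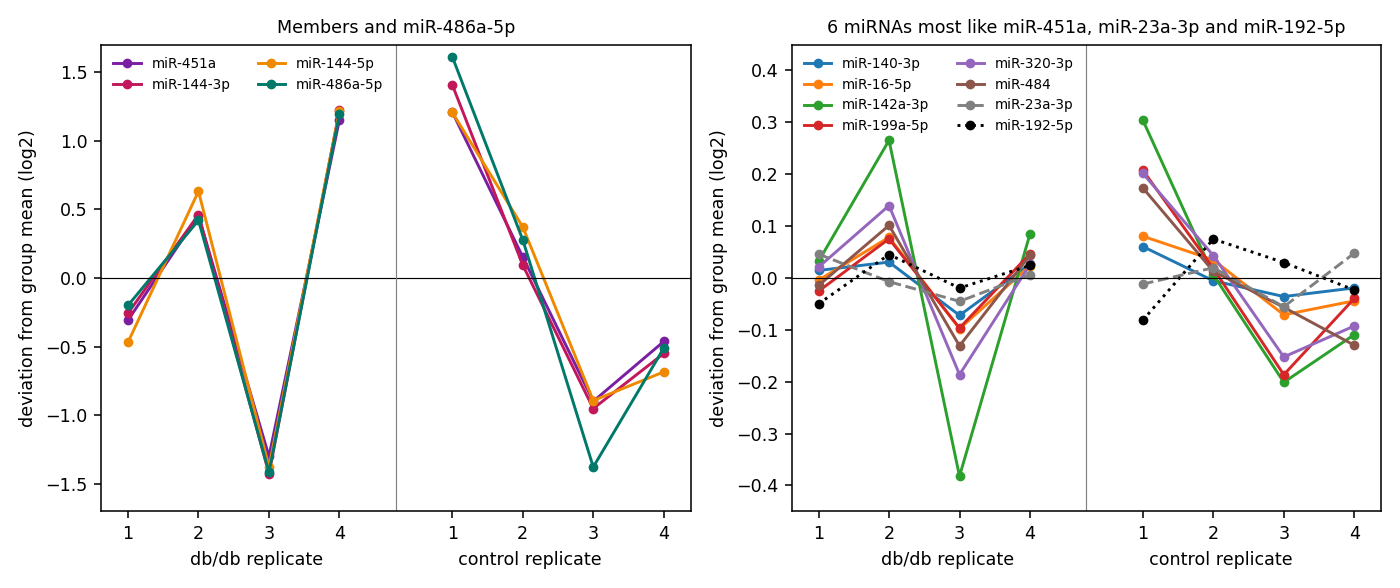
Deviation of log2 scaled signal from the group mean on each array, for the 3 members and miR-486a-5p in one panel and, on a narrower vertical scale, for the 6 miRNAs most like miR-451a, miR-23a-3p and miR-192-5p in the other; lines join the points of one miRNA and imply no order. In db/db kidneys the 3 members range from more than 1 log2 unit below to more than 1 above their means. The db/db SDs of the 6 run from 0.0486 for miR-140-3p to 0.274 for miR-142a-3p.

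Of the other miRNAs that are rich in red cells, miR-486a-5p, which is produced from the erythroid-expressed Ank1 gene, had the same order of arrays as miR-451a within each group. It was detected on db/db replicate 4 and control replicate 1. Its scaled signals were 6.49, 9.98, 2.24 and 17.1 in db/db replicates 1 to 4, and 22.2, 8.81, 2.33 and 5.10 in control replicates 1 to 4. Its within-group SD was 1.19, and its deviations had a correlation of 0.987 with those of miR-451a, both with 2 arrays at the floor. miR-486a-3p and miR-486b-3p were detected on no array.

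The tested part of the red-cell list holds miRNAs that many cell types make, and these varied little. Of its 12 names, 11 were on the array and 6 were tested. Besides the miR-486 entries, 2 names were too dim to be tested, miR-363-3p and miR-182-5p, with SDs of 0.390 and 0.330. miR-15b-5p was higher in db/db (0.24, adjusted p = 0.00730 in limma), miR-16-5p was lower (-0.19, adjusted p = 0.0236 in limma), and 4 did not pass. Over all 316 tested miRNAs, 24.4% were called higher and 17.4% lower. No member of the list was called lower under several alternatives, among them no scaling and scaling to spike-ins. None was called higher when all miRNAs set the 75th percentile, in the authors' value table or without db/db replicate 2. The list's median change was -0.03, against -0.02 over all tested. Within-group SDs of the 6 tested ran from 0.0378 to 0.0909, all below the median of 0.114. Small as they were, the deviations of some followed those of miR-451a, with correlations of 0.890 for miR-16-5p, 0.813 for miR-25-3p and 0.572 for miR-15b-5p. The correlation was 0.259 for miR-107-3p, 0.140 for miR-15a-5p and 0.0855 for miR-92a-3p. The median of the 6 was 0.415, against 0.298 over the 267 miRNAs compared. miR-23a-3p, which is set against miR-451a in the serum index of haemolysis, changed by 0.03 (adjusted p = 0.509 in limma) with an SD of 0.0411, and passed as higher in db/db when arrays were scaled to the spike-ins.

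Markers of other blood and kidney cells are given beside the members; over all 316 tested miRNAs 24.4% were called higher and 17.4% lower, with a median of -0.02. Of 7 leukocyte miRNAs, 6 were lower in db/db kidneys, with a median of -1.16 and SDs of 0.0527 to 0.299, miR-142a-3p among them (-1.16, adjusted p = 0.000719 in limma). One of the 6, miR-150-5p, was detected on 1 db/db array and 4 control arrays and so was tested only because of its level in control kidneys; with miRNAs detected on all arrays the count was 5. Of 4 tested platelet-rich miRNAs, 1 passed, miR-223-3p, which is also a leukocyte miRNA (-0.83, adjusted p = 0.000320), and the median was 0.00. Of 2 endothelial miRNAs, 0 passed in limma, with a median of -0.13. Of 9 kidney tubule miRNAs, 5 were higher and 0 lower, with a median of 0.17 and SDs of 0.0267 to 0.0765. Over the alternatives run, calls numbered 0 to 1 higher and 0 to 2 lower in the red-cell list, 0 to 2 higher and 1 to 2 lower in the platelet list, 5 to 7 lower in the leukocyte list, 0 to 2 lower in the endothelial list and 1 to 9 higher in the tubule list. Among miRNAs detected on all arrays, deviations of the leukocyte list had a median correlation of 0.586 with those of miR-451a, from -0.0898 to 0.889. That median was 0.344 for the platelet list, 0.276 for the endothelial list and -0.0900 for the tubule list, against 0.298 over the 267 compared. The part of blood content, and of these cell types, in the members' spread was not tested.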

How the data were processed

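The authors deposited scanner files of spot intensity made with Agilent Feature Extraction 12.0.3.1, with spatial detrending on and background correction off, per the file headers, and a value table of linear ratio values per miRNA and array, whose scale was read from the values. Each array has 58594 spots, of which 56430 belong to 4415 miRNA probes. No miRNA spot was saturated. Spots that were not outliers were averaged per probe and then over probes. Arrays were scaled to a common 75th percentile of miRNAs with a detection call on all arrays, floored at 2.80 (1.48 as log2 of the deposited signal after scaling), and log2 values of the 316 miRNAs called detected throughout either group were fitted with limma 3.58.1 in R 4.3.3 (Benjamini-Hochberg, adjusted p under 0.05). data.table was version 1.17.8; Python 3.11.15, numpy 2.4.6, pandas 2.3.3 and matplotlib 3.10.9 were used for tests and plots. Single values were tested by exact permutation over 70 assignments. The arrays shared 1 slide and 1 scan. On all 8 arrays the replicate number equalled the slide column, so same-numbered arrays shared a column. Over the tested miRNAs, their deviations had correlations of -0.431 to 0.406, so the numbers were not taken to pair the samples. For miR-451a, deviations in db/db and control had the same sign in column 2 (0.45 and 0.15) and column 3 (-1.30 and -0.90). They had opposite signs in column 1 (-0.31 and 1.21) and column 4 (1.15 and -0.46). A part of the slide column in the members' spread was not tested. The members and lists were chosen with earlier results of these data known. miRNAs were named by a rule: the members, the 6 miRNAs whose deviations correlate best with miR-451a, and the tested members of the lists. The fit was tested on simulated data.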

Additional observations from a re-analysis of the deposited data

Results flagged for a closer look

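Of 68 groups of 4 arrays examined, 4 had an array whose gap to the rest passed Dixon's 95% critical value, and chance gives about 1 in 20. None was miR-451a, miR-144-3p or miR-144-5p. In db/db kidneys, miR-140-3p was lowest on replicate 3 at 8.37 log2 units, against 8.46 to 8.48 on the others. miR-15a-5p was highest on db/db replicate 2 at 11.31, against 11.23 to 11.24 on the others. miR-92a-3p was lowest on db/db replicate 3 at 7.83, against 7.92 to 7.93 on the others. miR-107-3p was highest on db/db replicate 2 at 11.28, against 11.17 to 11.18 on the others.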

How the results depend on the processing

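The change of miR-451a never passed the threshold under 22 alternatives, with adjusted p from 0.355 to 0.959. It turned to -0.12 without db/db replicate 4 and to -0.04 without control replicate 3, and leaving out 1 replicate at a time gave -0.12 to 0.70. miR-144-3p kept its direction in all 22, with adjusted p from 0.171 to 0.894, and gave 0.12 to 1.00 with 1 replicate left out. The difference of miR-144-5p, for which the floor was set anew whenever an array was left out, ran from -0.01 to 1.32. Its SD was 2.89 in the authors' value table, where an undetected miRNA holds a fill, 0.428 with the brightest probe and 0.122 with normexp, which gave miR-144-3p 0.594. In that table the SDs of miR-451a and miR-144-3p ranked 38 and 37 among the tested miRNAs, and 13 and 12 with the floor at the lowest positive signal. Among the miRNAs detected on all arrays they held ranks 1 and 2; repeating that ranking under the 17 alternatives was added after seeing the data, and they held ranks 1 and 2 in each. The correlations of the 3 pairs kept an adjusted exact permutation p under 0.05 in all 17. That of miR-451a and miR-144-3p ran from 0.986 to 0.994. Those of miR-144-5p fell to 0.869 with miR-451a and 0.885 with miR-144-3p, both under the brightest probe. The reported setting called 132 miRNAs, and 34 were called when all miRNAs set the 75th percentile; the other alternatives gave 97 to 167, and leaving out 1 replicate 114 to 153. The share of calls that were higher in db/db was 58.3%, but 78.1% with no scaling, 83.2% with spike-ins, 46.6% with quantile normalization, 40.9% with the brightest probe and 45.1% without db/db replicate 2; the median change of all tested was 0.10 with no scaling and 0.16 with spike-ins. With the replicate block, 144 were called and the members had adjusted p of 0.691 for miR-451a and 0.480 for miR-144-3p; 2 of 8 arrays correlated best with their own number. Of the 6 most similar miRNAs, 1 to 6 were shared across alternatives. With 4 arrays a group, differences within the intervals given could not be shown.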
